A study of Mus musculus with 2 samples.

Results

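The cell cycle and DNA replication genes described here are 50 named genes, chosen by name from a list of cyclins, cyclin-dependent kinases (CDKs), CDK inhibitors, pocket proteins, E2F factors, replication genes and mitosis genes. No measured value entered the rule that chose them, though earlier results of these data were known at that time. Each was matched by symbol to 1 of the 55536 annotated genes in the tables. The samples were 2 total RNA libraries of the gastrocnemius, the large calf muscle, from female B6CASTF1/J mice aged 10 days. This strain is the first-generation cross of C57BL/6J with CAST/EiJ, and no treatment is named in the labels. Each library was made from 300 ng of RNA and labelled as biological replicate 1 or 2 of a single group. The labels give separate biosamples under 1 donor identifier and do not say how many animals each holds, so the spread between libraries may be partly technical. With 1 group, the questions are how much RNA of each phase and class the muscle held, and how far the libraries differed.

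As background, the cell cycle is driven by CDKs, which are active only when bound to a cyclin. D cyclins with CDK4 or CDK6 act first, in G1, and phosphorylate the pocket proteins, which otherwise hold E2F factors in check. Freed activating E2F factors turn on genes of DNA replication and the E, A and B cyclins, which with CDK2 and CDK1 carry the cell through S phase and mitosis. In growing limb muscle, the contractile fibres have left the cycle, while satellite cells, connective tissue cells and vessel cells can still divide. In whole tissue, fewer cells of a type and less RNA per cell cannot be told apart.

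Promoters of replication genes and of mitosis genes are known for different short motifs, and the sequences below show them in members of both classes whose windows hold a match. The cell cycle genes homology region (CHR), TTTGAA, is the element through which the MuvB complexes act on late cell cycle genes, and CCAAT is the box bound by the factor NF-Y. The E2F motif was searched as TTTCCCGC, TTTGGCGC, TTTCGCGC and TTTGCCGC. All were searched on both strands in RefSeq windows of 300 bases, 250 before and 50 after the start (build GRCm38.p6, the same coordinates as mm10). Of the 50 genes, 41 were in that table, with 47 windows. Capitals mark matches on either strand to CHR and CCAAT in the first 3 sequences and to E2F and CCAAT in the last 2, and each sequence ends at the base before the start.
Top2a, chr11:99024190-99024439, minus strand: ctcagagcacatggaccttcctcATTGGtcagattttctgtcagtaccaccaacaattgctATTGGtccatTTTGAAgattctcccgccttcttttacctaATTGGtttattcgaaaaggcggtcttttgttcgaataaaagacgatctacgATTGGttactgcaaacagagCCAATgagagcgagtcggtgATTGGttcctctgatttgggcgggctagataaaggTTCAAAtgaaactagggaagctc
Mki67, chr7:135716380-135716579, minus strand: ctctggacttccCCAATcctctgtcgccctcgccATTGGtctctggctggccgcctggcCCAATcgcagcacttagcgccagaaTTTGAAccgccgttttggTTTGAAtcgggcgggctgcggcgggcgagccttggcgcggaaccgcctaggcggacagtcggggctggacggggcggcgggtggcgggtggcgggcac
Kif11, chr19:37376282-37376381, plus strand: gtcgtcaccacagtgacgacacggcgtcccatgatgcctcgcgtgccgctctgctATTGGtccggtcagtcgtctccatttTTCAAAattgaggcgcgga
Mcm6, chr1:128359706-128359855, minus strand: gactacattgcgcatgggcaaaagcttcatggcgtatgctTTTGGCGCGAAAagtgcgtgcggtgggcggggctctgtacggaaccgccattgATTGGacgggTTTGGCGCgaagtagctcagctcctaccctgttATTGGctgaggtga
Mcm5, chr8:75109309-75109508, plus strand: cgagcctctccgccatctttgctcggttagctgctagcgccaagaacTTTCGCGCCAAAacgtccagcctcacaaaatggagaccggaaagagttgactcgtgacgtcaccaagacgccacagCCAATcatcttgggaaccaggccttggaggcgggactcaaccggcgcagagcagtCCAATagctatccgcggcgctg
The leftmost capital block of Mcm6 and that of Mcm5 each hold 2 overlapping E2F matches, 1 on each strand.

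The CHR letters were frequent in windows of mitosis genes and the E2F letters in those of replication genes. CHR was found in 10 of 13 mitosis windows (76.9%) and in 1 of 10 replication windows, that of Mcm2. Over all 32851 windows the share was 17.9%, and over windows of the detected protein coding genes 11.8%. The E2F letters were found in 4 of 10 replication windows (40.0%), those of Mcm3, Mcm5, Mcm6 and Mcm7, and in 0 of 13 mitosis windows. Their share was 2.26% of all windows and 4.0% of those of detected genes. CCAAT did not separate the classes, with matches in 11 of 13 mitosis windows and 9 of 10 replication windows, against 37.4% of all. Of the 13 CHR matches in mitosis windows, 10 began within 60 bases of the start. In Top2a matches began at bases -179 and -23, in Mki67 at -116 and -98, and in Kif11 at -19. The E2F letters were also in 2 of 4 kinase windows and 3 of 7 windows of E2F factors, and CHR in 1 of 4 and 3 of 7. Cdk1 held matches to all 3 motifs, as did E2f2 and E2f3. Neither CHR nor E2F letters were in the 6 windows of the 4 CDK inhibitors. They were also absent from the 3 windows found for the D and E cyclins. Those windows cover only 2 of these 5 cyclins, so the others were not searched. Median GC content was 58% in mitosis windows and 57.3% in replication windows, against 52.7% in all and 61.0% in those of detected genes. A match is a description of these letters, not a site.

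**Figure D1:**
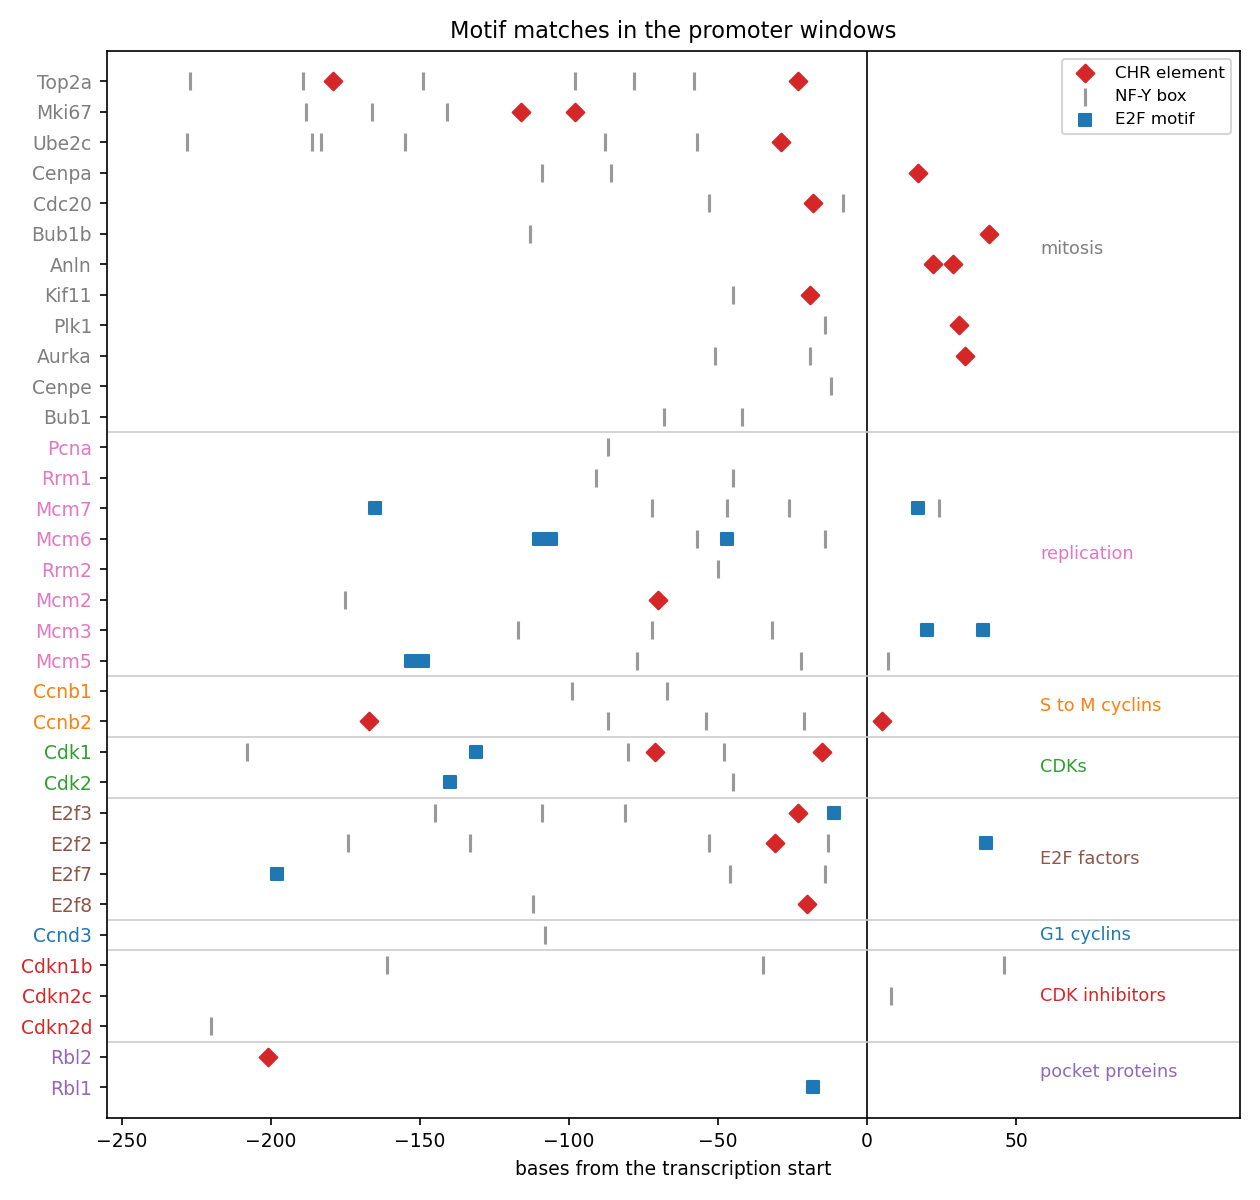
Positions of motif matches in RefSeq promoter windows of the genes with any match; the horizontal axis is bases from the start, rows are genes, and a gene with several windows has them overlaid. Red diamonds (CHR) lie in 10 of 13 mitosis windows and blue squares (E2F) in 4 of 10 replication windows.

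All 50 genes were detected, meaning a TPM, the length-scaled abundance of a gene's transcripts, of at least 1 in both libraries, against 52.3% of 22015 nuclear protein coding genes. They were expressed at low levels, with a median mean TPM of 6.6 against 9.35 over the detected genes, and 14 of 50 lay above that median. Together they held 0.119% of nuclear protein coding TPM in replicate 1 and 0.0936% in replicate 2, or 0.106% ± 0.018 (SD, n = 2). The counts behind a gene ranged from 111 to 4602 per library, in libraries of 35925081 and 39969380 expected counts.

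Markers of muscle were high in both libraries, and replicate 1 also held RNA of bone and marrow markers. All 10 muscle fibre markers were detected, at TPM 321 to 26299, as were all 10 satellite cell markers, at 1.26 to 59.9. Summed TPM of 8 cartilage and bone markers was 314.9 in replicate 1 and 14.67 in replicate 2, where Ibsp and Bglap were listed at 0. Of these 8, the cartilage markers Col2a1 and Acan had 14.74 and 11.52, and 2.24 and 1.54. The 8 granulocyte and marrow precursor markers summed to 56.48 and 0.89, with Elane, Ngp and Camp listed at 0 in replicate 2. The 8 erythroid precursor markers summed to 20.24 and 8.8, with Klf1, Gata1 and Rhag listed at 0 in replicate 2. The 6 lymphocyte markers summed to 3.88 and 1.4, with Vpreb1 and Rag1 listed at 0 in replicate 2. Most of that sum was Ptprc, at 2.21 and 1.1.

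**Figure D2:**
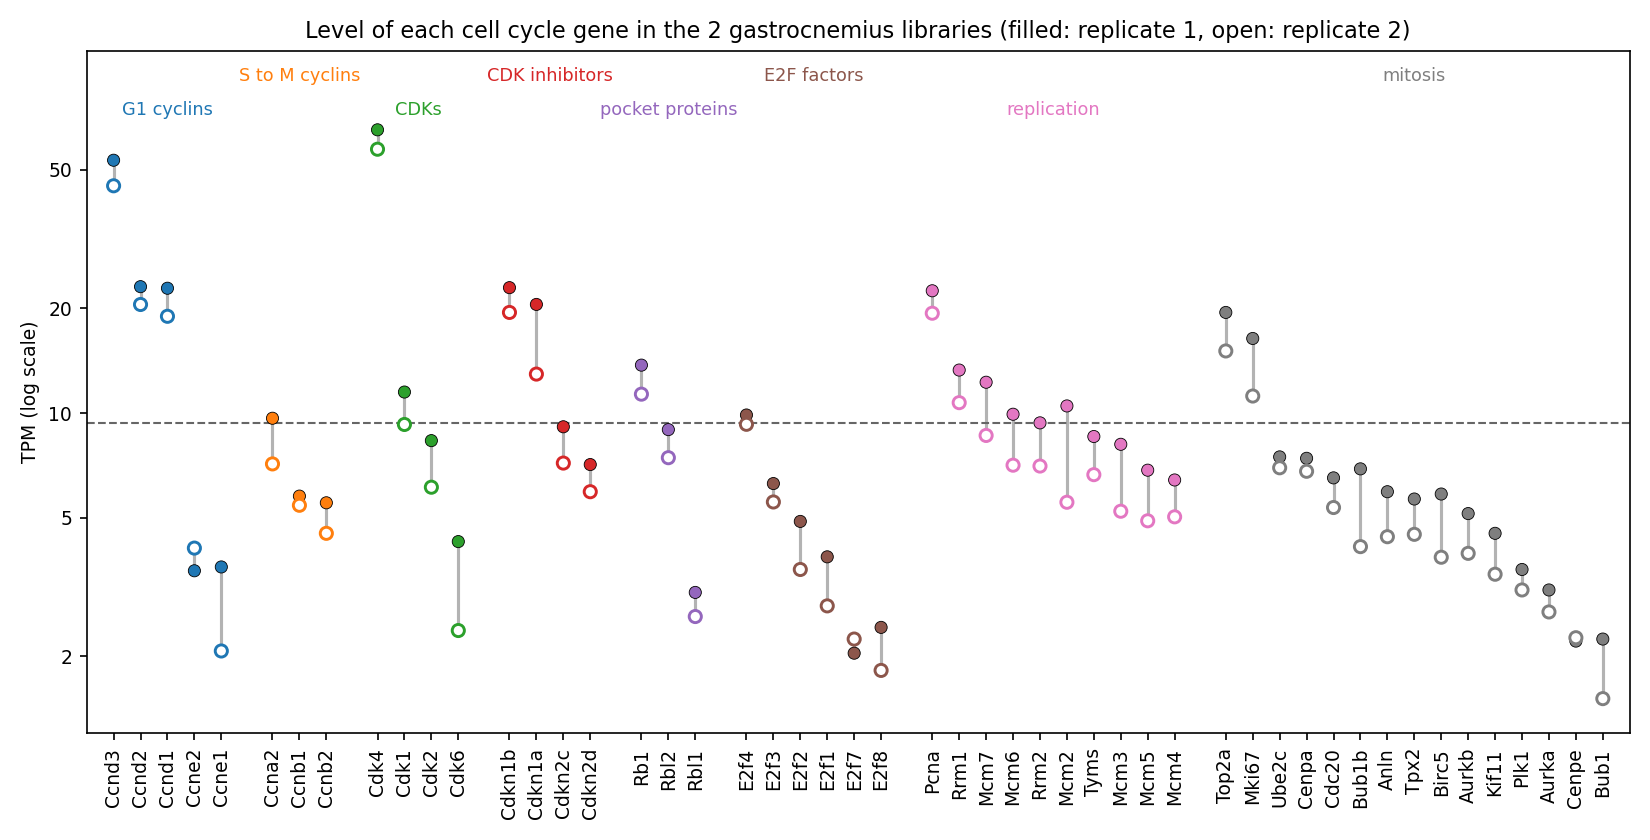
TPM of each of the 50 genes on a log axis, grouped by class and ordered by mean within a class; filled points are replicate 1 and open points replicate 2, joined by a line, and the dashed line is the median of detected protein coding genes (9.35). Cdk4 and Ccnd3 stand highest, and only Ccne2, E2f7 and Cenpe are higher in replicate 2.

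Among the cyclins of the 50 genes, the D type far outweighed the others. Ccnd3, cyclin D3 (chr17:47505051-47599691, plus strand, mm10), had a TPM of 53.3 in replicate 1 and 45.0 in replicate 2, above every other cyclin of the 50 in both. Ccng1, a cyclin outside the 50, was higher, at 204.13 and 271.43. Ccnd2 had 23.1 and 20.5, and Ccnd1 22.8 and 19.0. Ccnd3 thus held 53.5% ± 0.316 of D cyclin TPM (SD, n = 2), and its log2 ratio over Ccnd2 was 1.17 ± 0.05. Ccnd2 and Ccnd1 did not differ beyond their spread (0.06 ± 0.07). By expected counts, which are not scaled by length, Ccnd3 still led with 37.9% of D cyclin counts.

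The E cyclins, which partner CDK2 at the entry to S phase, were the lowest. Ccne1 had a TPM of 3.61 and 2.07, and Ccne2 3.52 and 4.09, so their order differed between libraries. Ccna2, the cyclin of S phase and early mitosis, had 9.66 and 7.14. The mitotic cyclins Ccnb1 and Ccnb2 had 5.77 and 5.43, and 5.52 and 4.51. Summed D cyclins exceeded summed A, B and E cyclins by 1.84 ± 0.03 on the log2 scale. The excess was 1.78 by kallisto-format TPM and 2.29 by counts.

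Of the kinases, Cdk4 (chr10:127063534-127067920, plus strand, mm10) had the highest gene-level TPM of all 50 genes, 65.2 and 57.3. Most of it lay on transcripts that are not annotated as coding. Cdk4-209, a retained intron form of 468 bases, held 37.9% and 40.0% of the gene, and the nonsense-mediated decay form Cdk4-208 held 26.1% and 24.9%. Coding forms held 20.5% and 26.5%, and 32.5% and 29.3% in the kallisto-format tables. Restricted to coding transcripts, Cdk4 had a TPM of 13.4 and 15.2. Its log2 ratio over Ccnd3 changed from 0.32 ± 0.04 to -1.74 ± 0.27, and its counts, 1326 and 1298, were also below those of Ccnd3, 2805 and 2665. The order of Cdk4 and Ccnd3 therefore depends on the unit and on which transcripts are summed.

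Cdk6, the other D cyclin partner, had a TPM of 4.27 and 2.37. The log2 ratio of Cdk4 over Cdk6 was 4.26 ± 0.47 by TPM, 2.19 ± 0.71 by coding TPM and 0.95 ± 0.20 by counts, in each case above 0. Cdk1, the mitotic kinase, had 11.5 and 9.27, and Cdk2, the kinase of S phase, 8.33 and 6.12. Cdk1 was the higher of the pair by TPM (0.53 ± 0.10) and the lower by counts (-0.46 ± 0.01). Summed Cdk4 and Cdk6 exceeded summed Cdk1 and Cdk2 by 1.88 ± 0.10 on the log2 scale over all transcripts, and by 0.28 ± 0.27 over coding ones.

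The inhibitors came from the Cip/Kip family, which acts on many cyclin-CDK complexes, and the INK4 family, which acts on CDK4 and CDK6. Cdkn1b, which encodes p27, had a TPM of 22.9 and 19.5. Cdkn1a, which encodes p21, had 20.5 in replicate 1 and 12.9 in replicate 2. Cdkn2c had 9.13 and 7.18, and Cdkn2d 7.11 and 5.94. Cdkn1b held 40.6% ± 3.07 of the summed TPM of these inhibitors and Cdkn1a 31.4% ± 4.21. The Cip/Kip pair exceeded the INK4 pair by 1.36 ± 0.08 on the log2 scale. Cdkn2c was above Cdkn2d by 0.32 ± 0.06, but below it in the kallisto-format tables (-0.39 ± 0.12).

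Set against the cyclins, the 4 inhibitors were lower in sum than the D cyclins and higher than the rest. Summed inhibitor TPM was 59.69 in replicate 1 and 45.52 in replicate 2. The log2 ratio over all 8 cyclins was -1.09 and -1.24, or -1.17 ± 0.11 (SD, n = 2). Over the D cyclins it was -0.81 ± 0.11, and over cyclins A, B and E 1.03 ± 0.08. The kallisto-format tables gave -1.14, -0.78 and 1.00. A difference of median log2 TPM gave 0.75 ± 0.17 over all cyclins, since most cyclins are low and the sum is set by the D type.

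This balance covers 4 of the 7 inhibitors of these families. Cdkn1c, which encodes p57 and is not among the 50 genes, had a TPM of 422.61 and 412.14, and Cdkn2a and Cdkn2b were near 0, at 0.13 and 0.04, and 0.22 and 0.17. Cdkn1c held 88.8% ± 1.73 of the TPM of the 7. With all 7, the log2 ratio over the cyclins among the 50 genes was 2.01 ± 0.12 by TPM and 1.32 ± 0.14 by counts, opposite in sign to that of the 4. No cyclin outside the 50 was added. The 7 were summed after their levels were seen.

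**Figure D3:**
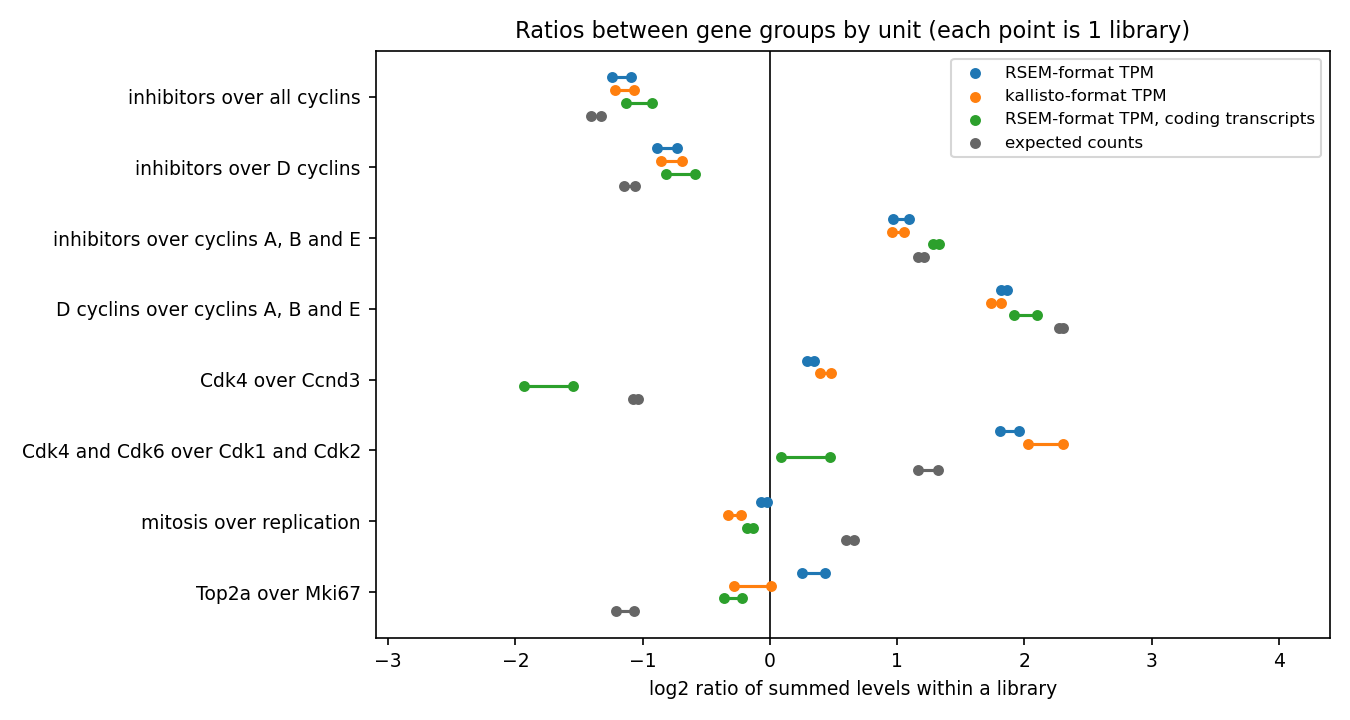
Log2 ratios of summed levels between gene groups within each library (horizontal axis), with 1 point per library, a line joining the libraries and a color per unit. The inhibitors lie left of 0 against D cyclins and right of 0 against cyclins A, B and E in all 4 units, while mitosis over replication and Cdk4 over Ccnd3 change side with the unit.

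Rb1 led the pocket proteins, the repressors of E2F targets. Its TPM was 13.7 and 11.3, against 8.96 and 7.44 for Rbl2 (p130) and 3.05 and 2.60 for Rbl1 (p107). Rb1 exceeded Rbl2 by 0.61 ± 0.01 on the log2 scale, and Rbl2 exceeded Rbl1 by 1.54 ± 0.03. Rbl2 is known as the form of quiescent cells and Rbl1 as that of cycling cells. In the kallisto-format tables Rb1 over Rbl2 was 0.08 ± 0.06 over all transcripts and 0.78 ± 0.10 over coding ones.

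E2f4, the E2F factor that works with Rbl1 and Rbl2 in repression, led its family with a TPM of 9.87 and 9.28, or 35.2% ± 2.22 of the family. By expected counts E2f3 led, with 810 and 823 counts against 501 and 532 for E2f4. By TPM the activators E2f3, E2f2 and E2f1 followed at 6.27 and 5.55, 4.88 and 3.55, and 3.86 and 2.79. The late repressors E2f7 (2.04 and 2.24) and E2f8 (2.42 and 1.82) were lowest, and did not differ from each other beyond their spread. E2f4 over E2f1 was 1.54 ± 0.27. The 3 activators together were level with E2f4, E2f7 and E2f8 together by TPM (-0.05 ± 0.16) and above them by counts (0.72 ± 0.07).

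Of the replication genes, Pcna, the sliding clamp of the DNA polymerases, was highest at a TPM of 22.5 and 19.4, though below Rrm1 by counts (871 and 876 against 1338 and 1275). Rrm1 and Rrm2, the subunits of ribonucleotide reductase, had 13.3 and 10.7, and 9.37 and 7.04. Tyms, thymidylate synthase, had 8.56 and 6.65. The 6 subunits of the MCM helicase, which form a ring with 1 copy of each, lay within a narrow range: 6.42 (Mcm4) to 12.3 (Mcm7) in replicate 1, and 4.90 (Mcm5) to 8.62 (Mcm7) in replicate 2. Mcm7 held 23.2% ± 0.714 of MCM TPM, and Mcm4 12.8% ± 1.38. By counts the lead differed between libraries, with 808 and 648 for Mcm6 against 720 and 661 for Mcm7. By RSEM-format TPM Mcm2 had 10.5 in replicate 1 and 5.54 in replicate 2, the widest gap of the 6, but 7.69 and 5.32 over coding transcripts. By kallisto-format TPM it had 12.0 and 7.33, and Mcm7 had a wider gap, 23.5 and 15.3.

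Among the mitosis genes, Top2a, the topoisomerase that untangles sister DNA, had a TPM of 19.5 and 15.1, and Mki67, the proliferation marker Ki-67, had 16.4 and 11.2. Their order depended on the measure: Top2a was higher by TPM (0.34 ± 0.13) and lower over coding transcripts (-0.29 ± 0.10) and by counts (-1.14 ± 0.10). Mki67 has the most counts of the 50 genes, 4602 and 3576, on a transcript of 10061 bases. The next were Ube2c, a ubiquitin conjugating enzyme of the anaphase promoting complex, at 7.48 and 6.96, and Cenpa, the centromeric histone, at 7.41 and 6.80. Cdc20, an activator of that complex, had 6.51 and 5.35. The checkpoint kinase Bub1b had 6.91 and 4.13, and Bub1 2.24 and 1.51, the lowest mean of the 50.

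The rest of the class lay between. The spindle genes Tpx2 and Kif11 had a TPM of 5.66 and 4.48, and 4.51 and 3.44. The midzone and cytokinesis genes Birc5, Aurkb and Anln had 5.85 and 3.85, 5.14 and 3.95, and 5.94 and 4.41. The kinases Plk1 and Aurka had 3.55 and 3.10, and 3.10 and 2.68, and the kinetochore motor Cenpe 2.21 and 2.26. Of 42 pairs of neighbours in the order of levels within a class, 29 kept their order in both libraries beyond the SD. Those that did not include Mcm6, Rrm2, Mcm2 and Tyms in a run, and Cdc20, Bub1b, Anln, Tpx2, Birc5 and Aurkb in another.

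Replication and mitosis genes were nearly level in sum. Summed TPM of the 10 replication genes was 107.7 and 80.15, and of the 15 mitosis genes 102.3 and 79.19. The log2 ratio of mitosis over replication was -0.05 ± 0.04 by TPM, -0.28 ± 0.07 by kallisto-format TPM and 0.63 ± 0.04 by counts, so no direction held across units. Per gene the mitosis class was lower, with a median mean TPM of 5.07 against 8.11.

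Other replication and mitosis genes were mostly detected, at lower median levels than the classes above. Of 45 other replication genes, 41 were detected, with a median mean TPM of 3.83 over the list. The single-strand binding subunit Rpa1 (26.3), the polymerase subunit Pold2 (18.1) and the origin subunit Orc3 (16.1) led by mean TPM, while Gins3 (0.77) and Orc1 (0.34) were lowest. Of 50 other mitosis genes, 46 were detected, with a median of 3.31. Ube2s (50.4), Bub3 (16.7) and Ncapd2 (15.3) led, and Sgo1 (0.88) and Cenpw (0.74) were lowest.

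All 11 genes listed under the DREAM and MuvB complexes and the mitotic activators were detected. The list also holds E2f6, which belongs to neither. Rbbp4 (42.9), E2f6 (26.2) and Tfdp1 (21.3) led by mean TPM, and Mybl2 (1.83) and E2f5 (1.43) were lowest. Of 22 other regulators of G1 and checkpoints, 20 were detected, led by Cdkn1c (417), Ccng1 (238) and Gas1 (29.7).

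Gene-level TPM sums coding and other transcripts, and for most of the 50 genes the coding forms dominated. The median share of a gene's TPM on coding transcripts was 91.9% in the RSEM-format and 93.1% in the kallisto-format tables. It was over 90% in both RSEM-format libraries for 24 genes, and under 50% in both for 3: Cdk4, Tyms and Cenpa. Tyms had 29.4% and 40.3%, led by the nonsense-mediated decay form Tyms-205, and Cenpa 19.7% and 22.4%, led by Cenpa-202 of the same kind. Ccne2 had 55.4% and 45.9%, led by the processed transcript Ccne2-205. Coding TPM was 2.52 and 2.68 for Tyms, and 1.46 and 1.52 for Cenpa.

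The leading transcript was the same in both libraries and both kinds of table for 42 of 50 genes, against 67.5% of detected protein coding genes. It differed somewhere for Ccnd3, Ccne2, Cdkn1a, E2f1, Tyms, Aurka, Cenpa and Tpx2. For Cdkn1a the RSEM-format tables put 96.7% and 97.5% on Cdkn1a-201. The kallisto-format tables put 76.7% on Cdkn1a-205 in replicate 1 and 50% on Cdkn1a-201 in replicate 2. For Ccnd3 the RSEM-format tables put 91.9% and 94.6% on Ccnd3-205, and the kallisto-format tables put 11.8% and 22.8% there. The forms of Cdkn1a and Ccnd3 named here are all annotated as coding.

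**Figure D4:**
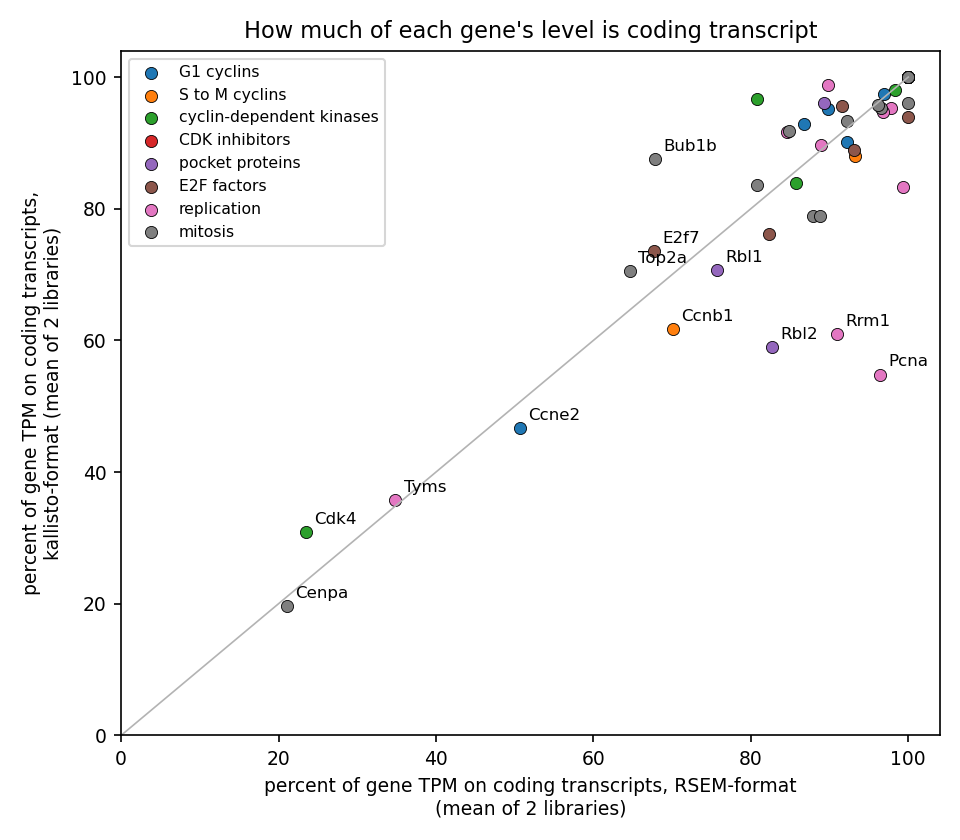
Percent of each gene's TPM on coding transcripts in the RSEM-format (horizontal) and kallisto-format tables (vertical), each the mean of 2 libraries; colors are classes, names are given below 75% on either axis, and the line marks equality. Cenpa, Cdk4 and Tyms lie below 50% in both, while Pcna and Rrm1 fall only in the kallisto-format tables.

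Some levels rest on reads that could belong to another gene or on an estimate outside its own interval. The TPM lay below the authors' deposited interval for Cenpe in replicate 1, against 1.87% of detected genes, and for Mcm2 and Bub1 in replicate 2, against 2.74%. Expected counts were not whole, which marks reads divided between genes, for Ccnb1, Mcm7, Tyms, Top2a, Cdc20 and Pcna, 6 of 50 against 14.9% of detected genes. Pcna has a processed pseudogene, Pcna-ps2, with 69 and 46 counts beside 871 and 876 for Pcna. Tyms had 260 and 190 counts in the RSEM-format tables, and the kallisto-format counts were higher by 0.75 on the log2 scale, against a median of 0.07 over the 50 genes. On the opposite strand, 11 of the 50 genes overlap a protein coding gene. Ube2c overlaps Tnnc2, the fast troponin C gene, which had 103369 and 125276 counts beside 186 and 196 for Ube2c, so Ube2c is uncertain. A stranded preparation is named for the spike-ins in the labels, and the strand setting of the counting is not given in the sources used here.

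Between libraries, no gene of the 50 differed by 1.5-fold or more in counts scaled by TMM, a normalization that sets the bulk of genes level. Over the 15198 genes whose counts averaged 20 or more, 8.9% were lower and 2.68% higher in replicate 2 by that limit. The median log2 ratio of replicate 2 over replicate 1 was -0.04 over the 50 genes and 0.04 over all. Of the 50, 33 were lower and 17 higher in replicate 2, against 44.2% lower over all genes. By kallisto-format counts 27 of the 50 were lower, against 38.7%. By unscaled TPM, 47 of 50 were lower in replicate 2, against 76.5% of detected genes, with library totals 48, against 75.9%, and with spike-in totals all 50, against 89.9%. Those past 1.5-fold were then 4 of 50 with library totals, against 15.3%, and 12 with spike-in totals, against 23.6%. The count of lower genes therefore depends on the scaling, which moved the median of all genes by -0.24 for library totals and -0.39 for spike-ins.

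The lowest ratios were those of an inhibitor, an E cyclin and genes of replication and mitosis. Cdkn1a had the lowest ratio, -0.39, with a 95% counting interval (exact, Clopper-Pearson) of -0.53 to -0.26, from 1041 and 745 counts. Ccne1 had -0.38 (-0.75 to -0.02), Tyms -0.36 (-0.64 to -0.09), Birc5 -0.36 (-0.71 to -0.01), Mcm2 -0.30 (-0.46 to -0.14) and Mki67 -0.27 (-0.34 to -0.21). The interval lay below 0 for 12 genes, above 0 for Rb1 and Rbl2, and held 0 for 36. The share of all genes with such intervals was not computed, so these counts have nothing to be set against. Rbl2 had 0.24 (0.11 to 0.37) and Rb1 0.12 (0.01 to 0.22). These intervals cover counting error only, with 1 library on each side.

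By class, the median ratio was -0.14 for replication (8 of 10 lower), -0.07 for mitosis (13 of 15 lower), -0.07 for the E2F factors, -0.20 for the kinases and 0.12 for the pocket proteins (3 of 3 higher). It was 0.02 for the G1 cyclins and 0.03 for the inhibitors. Over all genes the median was 0.04 and 44.2% were lower. Other replication genes had -0.11 (30 of 45 lower) and other mitosis genes -0.10 (38 of 50 lower), with Dlgap5 (-0.65) and Cdc25c (-0.90) past 1.5-fold. By kallisto-format counts the lower genes were 7 of 10 for replication and 9 of 15 for mitosis. They were 27 of 45 for other replication and 28 of 50 for other mitosis genes, against 38.7% over all genes. The DREAM and MuvB list had 0.14 and the other G1 regulators 0.19, with Ccng1 past the limit at 0.69. With library totals the G1 cyclins (-0.23), inhibitors (-0.21), pocket proteins (-0.13), DREAM list (-0.11) and other G1 regulators (-0.05) were all below 0. The median of all genes was then -0.20.

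Markers of other cells moved between the same libraries. The median ratio was -6.45 for cartilage and bone markers (8 of 8 lower in replicate 2, 6 past 1.5-fold). In that list the cartilage markers Col2a1 (-0.05) and Acan (-0.26) moved least. For granulocyte and marrow precursor markers the median was -6.28 (6 of 6 measured lower). It was -2.02 for erythroid precursor markers (5 of 5 measured) and -0.24 for macrophage markers (5 of 8). The lymphocyte list had -2.97 from 2 measured genes, Rag1 (-4.97, with 49 and 1 counts) and Ptprc (-0.97). The median was 0.49 for muscle fibre markers (10 of 10 higher), 0.15 for satellite cell markers (6 of 10 higher) and 0.08 for endothelial markers (8 of 8 higher). It was 0.02 for Schwann cell markers (3 of 6 higher) and -0.04 for fibroblast markers (6 of 8 lower). Of the fibroblast markers, Col1a1 was past 1.5-fold at -0.63, with a TPM of 3542 in replicate 1 and 1887 in replicate 2. Over all genes 44.2% were lower. The part of these cell types in the lower replication and mitosis values of replicate 2 was not tested.

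**Figure D5:**
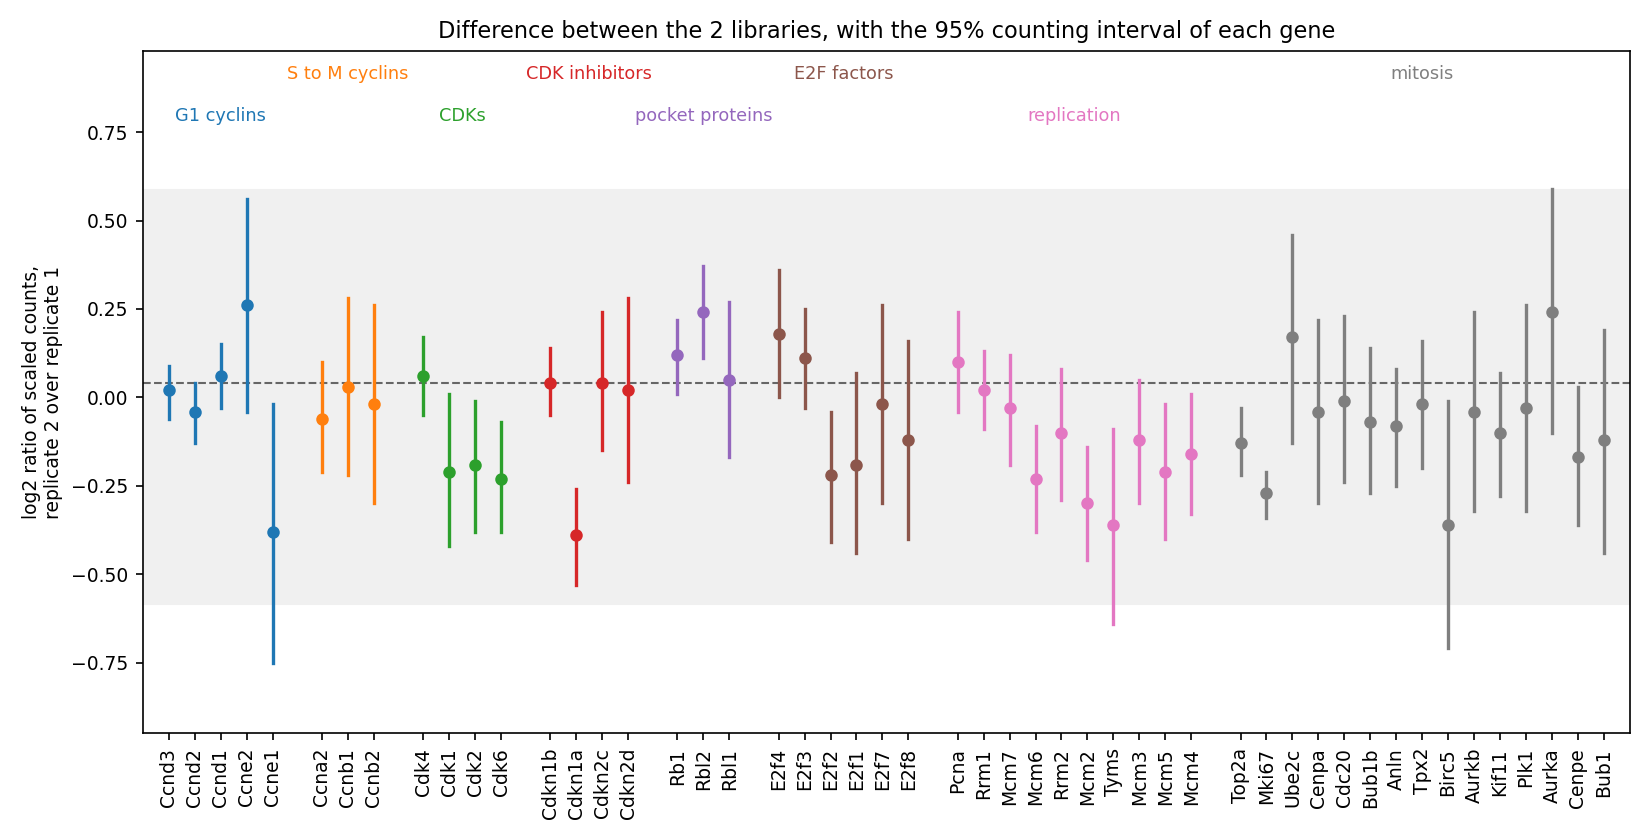
Log2 ratio of TMM-scaled counts, replicate 2 over replicate 1, for each gene with its 95% counting interval, grouped by class; the dashed line is the median of all genes (0.04) and the grey band spans 1.5-fold either way. Every point lies inside the band, with Cdkn1a lowest (-0.39) and Ccne2 highest (0.26).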

How the data were processed

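The data of both libraries were used as deposited: RSEM-format gene and transcript tables and kallisto-format transcript tables per library. The deposited tables give expected counts and estimated counts, TPM, the percent of a gene held by each transcript, and interval bounds for TPM. Per the text files deposited beside them, the build is mm10 and the annotation GENCODE M21; the aligner is not given in the sources used here.

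Members and lists were chosen with earlier results of these data known. Shares are percent of nuclear protein coding TPM. Ratios between libraries are log2 CPM of rounded counts after TMM scaling (edgeR 4.0.16, R 4.3.3, prior count 0.5, mean count at least 20); DESeq2 1.42.0 gave alternative size factors. With 1 group there is no comparison between groups, and over 2 libraries the smallest two-sided p of an exact sign-flip test is 0.5, so no test was run. The scaling was tested on simulated data. Counts were called whole within 0.005. Neighbours in level were called different where both libraries gave the same order and the mean log2 difference exceeded its SD. Every one of the 50 genes could be named, and of other lists the 3 highest, the 2 lowest and those past 1.5-fold; Cdkn2a and Cdkn2b are those lowest. Promoter windows printed are those of the 3 highest genes of each class with a match wholly before the start and no annotated exon in the printed bases, which left 2 replication genes; the exon condition was added after the data were seen. Markers listed at 0 are also named, as are the cartilage markers Col2a1 and Acan. Values were computed with Python 3.11.15, pandas 2.3.3 and scipy 1.17.1.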

Additional observations from a re-analysis of the deposited data

How the results depend on the processing

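No paired analysis was possible because the series has 1 group. All 50 genes were detected with every alternative except the limit of TPM 2, which left 48. The share of protein coding TPM was 0.0494% over all named genes and 0.155% without the 20 highest genes.

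Inhibitors over cyclins was -1.37 by expected counts, -1.03 over coding transcripts, -0.81 over D cyclins, and above 0 over cyclins A, B and E (1.03), by medians (0.75) and with the other 3 inhibitors added (2.01); leaving out a library gave -1.24 and -1.09. Mitosis over replication was -0.28 by kallisto-format TPM, -0.16 over coding transcripts, -0.72 by medians and 0.63 by expected counts.

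Shares within families by expected counts were Ccnd3 37.9%, Cdk4 65.9%, Cdkn1b 53.1%, E2f4 20.6% and Mcm7 19.1%. Kallisto-format TPM gave Ccnd3 57.2%, Rb1 45.8%, E2f4 32.2% and Mcm7 29.3%, posterior mean TPM gave Ccnd3 52.8%, and coding transcripts gave Ccnd3 55.8%, Cdk4 81.5%, Rb1 55.6% and Mcm7 22.3%.

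With library totals the median ratio between libraries was -0.29, 48 genes were lower, 2 higher and 4 lower by 1.5-fold; with spike-in totals it was -0.44, with 50 lower, 0 higher and 12 lower by 1.5-fold. Under these scalings the lists gave -0.35 and -0.50 (other replication), -0.34 and -0.49 (other mitosis), -0.11 and -0.26 (DREAM and MuvB), and -0.05 and -0.20 (other G1 regulators). The G1 cyclins (-0.23 and -0.38), inhibitors (-0.21 and -0.36), pocket proteins (-0.13 and -0.28), Rb1 (-0.13 and -0.28) and Rbl2 (0 and -0.15) changed sign. The median of all genes was -0.20 and -0.35 under the same scalings. By kallisto-format counts 27 genes were lower, and the S to M cyclins were at 0.01.

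By kallisto-format TPM the order of single genes changed for Cdkn2c over Cdkn2d (-0.39 ± 0.12). Ccnb1 over Ccnb2 (-0.05 ± 0.11) and Top2a over Mki67 (-0.13 ± 0.21) then did not differ beyond their spread. Of the 29 neighbouring pairs that kept their order by TPM, 10 had the opposite order by expected counts in both libraries. Pairs described in the text that did so include E2f4 over E2f3, Pcna over Rrm1, Cdk1 over Cdk2 (-0.46) and Top2a over Mki67 (-1.14), and Cdk4 over Ccnd3, of different classes, had -1.06. Over coding transcripts, Ccnb1 over Ccnb2 was -0.35 and -0.75, Cdk4 over Ccnd3 -1.74 and -1.23, and Top2a over Mki67 -0.29 and -0.64, in the RSEM-format and kallisto-format tables. The cause of these moves was not tested. Coding-only sums, medians for mitosis over replication, the added inhibitors and the windows of detected genes were chosen after seeing the data. With 1 library a side, the ratios between libraries have no replicate check, and genes with at most 260 counts in each library had intervals over 0.5 wide on the log2 scale.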
